A study of Homo sapiens with 20 samples.

Results

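The cytosolic ribosomal proteins are the proteins of the small (40S) and large (60S) subunits of the ribosome that translates nuclear messenger RNAs. Their probe sets were taken as those whose single annotated symbol is RPL or RPS followed by digits, with an optional ending A, L or X, or is one of the stalk and laminin-receptor symbols RPLP0, RPLP1, RPLP2 and RPSA. Kinases of the RPS6K family, pseudogenes and the Y-linked RPS4 paralog were left out. The rule found 93 of 22215 probe sets, for 55 genes: 34 genes of the large subunit with 55 probe sets, and 21 genes of the small subunit with 38 probe sets. Another 57 probe sets name several genes with a ribosomal protein gene among them and were left out. Because of this, 16 ribosomal protein genes are not described: RPL4, RPL5, RPL7A, RPL10, RPL13, RPL13A, RPL17, RPL21, RPL23, RPL28, RPL36A, RPS2, RPS3A, RPS13, RPS20 and RPS26. RPLP0, RPSA and RPS27A had no probe set that met the rule.

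RNA came from THLE-3, an established human liver epithelial cell line that carries the SV40 large T antigen. All cells were of this 1 line, so every group shared its immortalising antigen, which binds and inactivates p53 and RB. The groups were 0.1 mM leucine (low) and 2.0 mM leucine (high), each at 0, 30, 60, 120 and 480 min, on Affymetrix human oligonucleotide arrays. Each of these 10 groups had 2 arrays, numbered by the labels as the first and second experiment, which makes 20 arrays in all. Whether the experiments were separate cultures is not stated, and p-values here reflect the spread between these 20 samples alone, which may be technical.

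Ribosomal protein genes are among the most highly expressed genes of growing cells, and most of their products are needed in equal amounts. In vertebrates most of their messenger RNAs begin with a cytosine followed by a run of pyrimidines, the terminal oligopyrimidine (TOP) motif. Through this motif the kinase mTORC1, which senses leucine among other signals, sets how much of each messenger RNA is being translated, with LARP1 as the protein that holds the cap when mTORC1 is off. This control acts on translation, and arrays of total RNA read the amount of the messenger RNA and not its translation.

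The starts of the genes were read from the RefSeq promoter table of build GRCh38.p14, in which 47 of the 55 genes were found with 54 annotated starts. RPL7, RPL8, RPL23A, RPL30, RPL37, RPL39L, RPL3L and RPS15A were not matched. A start was counted as TOP when the first transcribed base was C and at least 4 bases of C or T followed. This held for 33 of the 54 starts (61.1%) against 4.07% of all 35116 starts in the table, and for 33 of the 47 genes (70.2%) against 5.14% of all genes. The runs were 5 to 19 bases long with a median of 8. The following windows show the 20 bases before and 15 bases from the annotated start, with the TOP run in capitals; they were chosen because the results below turn on these genes or on their paralogs.
RPL41 (chr12:56116613-56116647, plus strand): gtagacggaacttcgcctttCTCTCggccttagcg
RPS6 (chr9:19380222-19380256, minus strand): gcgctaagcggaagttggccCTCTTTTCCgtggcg
RPL37A (chr2:216498824-216498858, plus strand): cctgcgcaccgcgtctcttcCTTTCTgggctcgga
RPL22 (chr1:6199581-6199615, minus strand): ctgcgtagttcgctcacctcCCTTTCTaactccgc
RPS12 (chr6:132814549-132814583, plus strand): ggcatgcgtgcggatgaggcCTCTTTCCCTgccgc
RPLP1 (chr15:69452798-69452832, plus strand): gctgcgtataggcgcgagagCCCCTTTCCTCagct
RPS27 (chr1:153990742-153990776, plus strand): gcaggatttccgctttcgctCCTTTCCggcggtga
RPS27L (chr15:63157463-63157497, minus strand): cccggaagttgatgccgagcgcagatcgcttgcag
RPL3 (chr22:39319609-39319643, minus strand): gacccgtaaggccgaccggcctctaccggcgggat
RPL10L (chr14:46651767-46651801, minus strand): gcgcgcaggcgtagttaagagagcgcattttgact

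RPL41, RPS6, RPL37A, RPL22, RPS12, RPLP1 and RPS27 carry a TOP run at the annotated start. RPS27L, RPL3 and RPL10L are among the 14 genes without one at any annotated start; the others are RPL6, RPL9, RPL10A, RPL19, RPL27, RPL32, RPS4X, RPS7, RPS15, RPS28 and RPS29. The start used in these cells was not measured. In the 300 bases around the starts, CCGGAAG, the letters of an ETS-family motif, stood on either strand in 40.7% of the starts of these genes and in 10.3% of all starts. GGGCGG, the GC box, stood in 51.9% against 45.0%. TATAAA stood in 7.41% against 11.5%, and AAGATGG, letters found in YY1 motifs, in 9.26% against 5.84%. CCGGAAG on the other strand reads CTTCCGG, whose first letters can lie inside a TOP run, and its AAG can be shared with AAGATGG. A match is a description and not a measured site.

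Ribosomal protein probe sets gave some of the highest signals of the arrays. Reading each gene by its brightest probe set, the median gene lay at percentile 99.5 of all probe sets by mean intensity, and 50 of the 55 genes lay above the 95th percentile. All 21 small-subunit genes did so, and 29 of the 34 large-subunit genes. Of the 100 brightest probe sets, 25 belonged to 20 of these genes. The 93 probe sets are 0.419% of the array and held between 3.85% and 4.30% of the summed intensity of each array. Intensity depends on the probes as well as on the RNA, so these ranks do not compare amounts of messenger RNA between genes.

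RPL41, which encodes the smallest protein of the large subunit, was the brightest, with a mean intensity of 17358 ± 498 (SD, n = 10 arrays) in the first experiment and 20710 ± 457 (SD, n = 10) in the second. The deposited values of the experiments did not overlap for RPL41, which ran from 16522 to 21694 over the 20 arrays. RPS6, the 40S protein that is phosphorylated by S6 kinases downstream of mTORC1, had its brightest probe set at 12971 ± 210 (SD, n = 10) in the first and 14444 ± 306 (SD, n = 10) in the second experiment. RPL11, which with RPL5 binds MDM2 when ribosome assembly fails, ran from 7148 to 9058 with a median of 8017 over the 20 arrays. RPS4X, the X-linked copy of RPS4, ran from 13336 to 16799 with a median of 15129.

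The paralogs, copies of a ribosomal protein gene with a narrower or different use, gave lower signal than most. RPL3L, the copy of RPL3 used in striated muscle, had a mean of 254.3 at percentile 21.1 and was removed by the filter on low values. RPL10L, known from the testis, had a mean of 430.9 at percentile 46.0, and RPL39L, also known from male germ cells, 830.6 at percentile 75.2. RPS27L, a copy of RPS27 that p53 can induce, ran from 2342 to 3294 with a median of 2748, against 9286 to 13239 with a median of 10640 for RPS27. The intensity ranges of RPS27L and RPS27 did not overlap. RPLP2, an acidic stalk protein that recruits elongation factors and is not a paralog of this kind, was read by a probe set with a mean of only 411.7, at percentile 43.3. RPLP1, its partner in the stalk, had 12654 at percentile 99.7. RPL27A, a 60S protein, had 1448 at percentile 89.1.

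**Figure D1:**
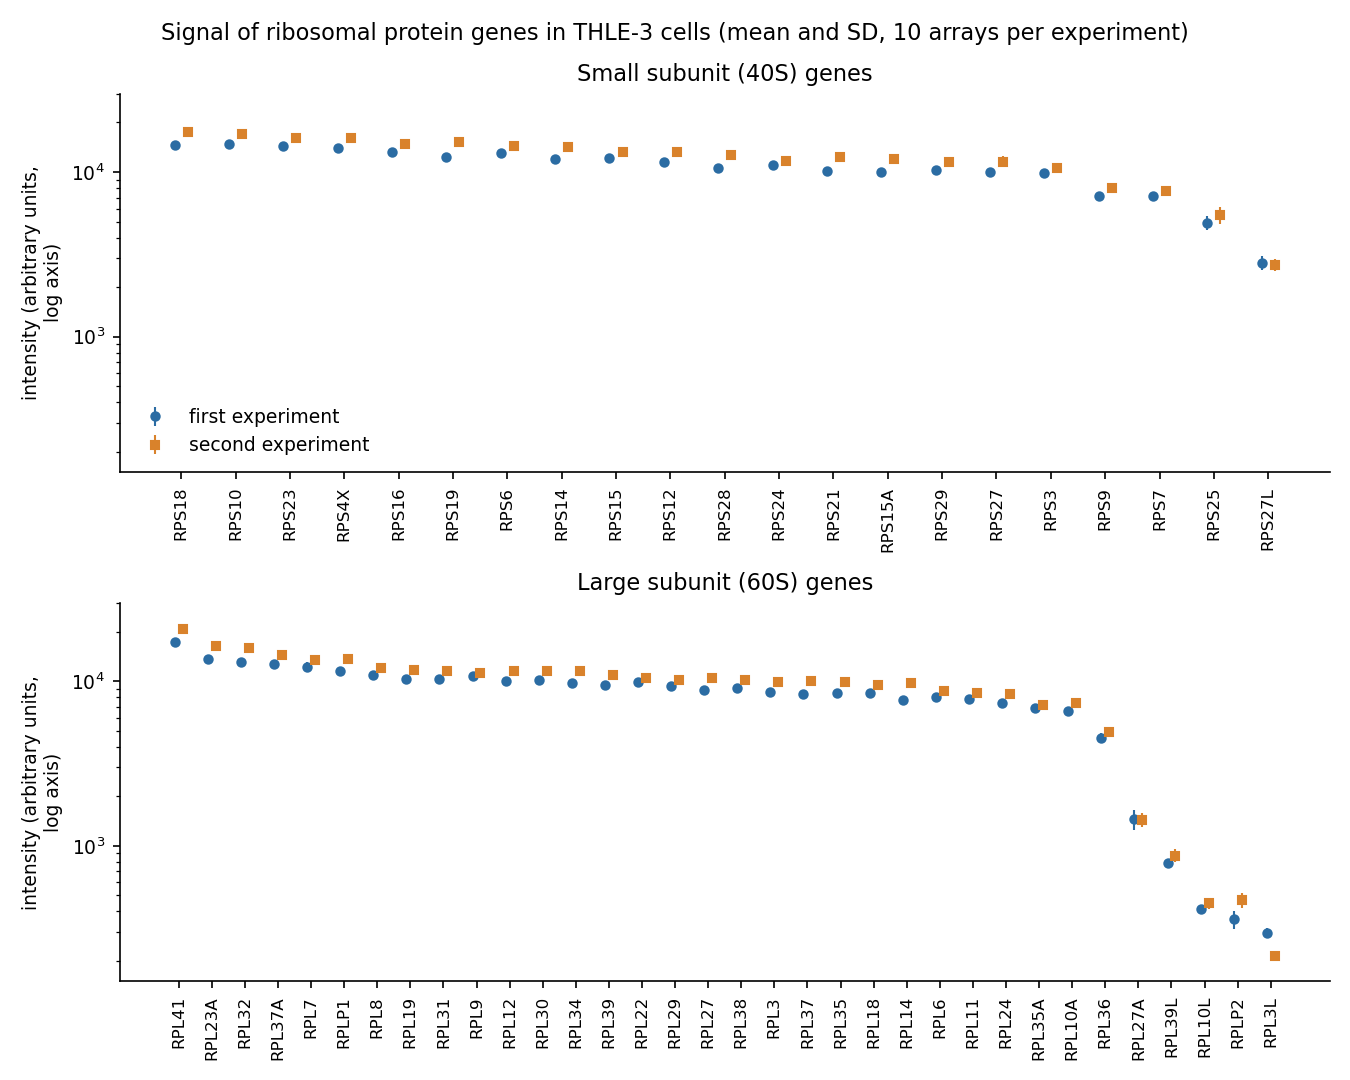
Deposited intensity of the 55 genes, each read by its brightest probe set, on a log axis; points are the mean and bars the SD of the 10 arrays of an experiment, with small-subunit genes above and large-subunit genes below. All 21 small-subunit genes and 29 of 34 large-subunit genes lay above the 95th percentile of the array, while RPL27A, RPL39L, RPL10L, RPLP2 and RPL3L lay lower.

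The samples parted by experiment: correlations of the arrays were 0.983 to 0.997 within an experiment and 0.936 to 0.953 between experiments, and the array medians ran from 433.2 to 492.9 units. None of 11 measured hepatocyte markers reached the 90th percentile of signal (0 of 11), against 4 of 8 markers of biliary and simple epithelium and 5 of 8 of stellate cells and fibroblasts. Those above it were the keratins KRT7, KRT8, KRT18 and KRT19, and VIM, SPARC, COL1A1, COL3A1 and THY1, so the defining hepatocyte genes of the labelled liver cells were not among the bright probe sets. The summed intensity of the 8 biliary and epithelial markers was 12136 to 15453 in the first experiment and 21231 to 29380 in the second, and the part of this in the differences between experiments described below was not tested. For endothelial and blood markers it was 0 of 6. After adding a pseudocount of 165.2, taking log2 and quantile normalization, probe sets with a mean at or above the 40th percentile were tested, which left 13329 probe sets, 84 of the 93 ribosomal protein probe sets and 54 of the 55 genes. Changes are differences of these log2 values. Comparisons were fitted with limma without a term for the experiment (unblocked) and with it (blocked), and a probe set passed when its Benjamini-Hochberg adjusted p over all 13329 was under 0.05.

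Whether leucine supply changed the amounts of ribosomal protein messenger RNAs was read from high against low leucine at each time. Over the 5 times together the median difference of the 84 probe sets was 0.00, with a range from -0.07 to 0.07. In the unblocked fit 0 of 84 passed for this mean, at 0, 30, 60, 120 or 480 min, or for the change of the difference from 0 to 480 min; the shares of all 13329 probe sets passing were 0.0075%, 0%, 0%, 0%, 0.0075%, 0.27% and 0%. At an unadjusted p under 0.05 the unblocked limma fit gave 0 for the mean and, in order of time, 3, 1, 0, 0 and 5 of the 84, and 6 for the change, against 2.32%, 6.47%, 1.16%, 0.765%, 1.03%, 6.65% and 7.79% of all probe sets. In the blocked fit 0 of 84 passed for the mean (0.173% of all), at 0 min (0.578%, or 0.0825% higher and 0.495% lower), 30 min (0%), 60 min (0%) and 120 min (0.03%), with 1, 10, 3, 0 and 2 at an unadjusted p under 0.05 in limma, against 7.11%, 17%, 4.45%, 3.14% and 4.51% of all. At 480 min 1 probe set rose and 2 fell in the blocked fit, against 2.48% of all probe sets rising and 1.61% falling (4.09% passing), so 3 of 84 is near the share of the whole array. With values as deposited or with median centring in place of quantile normalization, only 1 of the 84 passed at 480 min.

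The width of the intervals shows the spread between arrays after scaling. How far the signal of such bright probe sets follows the amount of RNA was not tested. At 480 min the 95% interval of the leucine difference, from the blocked fit, lay within 0.5 of 0 on the log2 scale for 81 of the 84 probe sets and within 0.25 for 66. The spread of the members around the blocked fit was small: their median residual SD was 0.0537, against 0.0666 for all 13329 probe sets and 0.0658 for 1041 other probe sets above the 95th percentile. The widest spreads were those of RPL38, a 60S protein, with residual SDs of 0.219 and 0.193 for 2 of its 3 probe sets, followed by the dimmer RPL37A probe set with 0.158 and RPL27A with 0.143.

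Median differences were small at each time. Their sign was the same under the 3 scalings at 0, 30 and 120 min and turned with the scaling at 60 and 480 min. At 120 min the median was -0.01 over the 84 probe sets but 0.01 over the 54 genes read by their brightest probe set. At 30 min the median was 0.03, with 56 of 84 above 0, and it was 0.05 as deposited and 0.07 with median centring. At 0 min it was -0.01, with 50 of 84 below 0, and -0.08 as deposited with 73 of 84 below 0; leaving out 1 array, it ran from -0.06 (without the first-experiment low-leucine array at 0 min) to 0.01 (without the first-experiment high-leucine one). At 480 min it was -0.01 after quantile normalization and 0.01 and 0.03 under the other scalings, and ran from -0.04 without the first-experiment to 0.02 without the second-experiment high-leucine array at 480 min. Large- and small-subunit probe sets had medians at 480 min of -0.01 for the 60S and -0.01 for the 40S. By their starts, genes with a TOP run had a median of -0.01 (33 genes) and those without one -0.02 (14 genes).

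RPL37A, a small zinc-binding 60S protein, gave the largest leucine difference, in 1 of its 2 probe sets tested. Its dimmer probe set (214041_x_at) read 1018 and 1612 in low leucine at 480 min in the first and second experiment, and 1954 and 2170 in high leucine. Both high-leucine arrays lay above both low-leucine arrays. The difference was 0.58 ± 0.13 (SE, blocked fit, adjusted p = 0.019), or 0.80 in the first and 0.37 in the second experiment; the unblocked fit gave ± 0.27 and adjusted p = 0.75. Within high leucine the same probe set rose from 1031 and 1625 at 0 min, a change of 0.51 ± 0.13 (blocked, adjusted p = 0.016) that passed no longer without the first-experiment array of either time. The change of its leucine difference between 0 and 480 min was 0.69 ± 0.18 (blocked, adjusted p = 0.047), the only member to pass in that comparison, in which 3.82% of all probe sets passed, 2.69% upwards and 1.13% downwards. Of 28 alternatives 11 kept this call, and leaving out any 1 array ended it except the arrays at 120 min and, at 0 min, the first-experiment low-leucine and second-experiment high-leucine arrays. Without the first-experiment array of either 480 min group the adjusted p of the leucine difference passed the threshold no longer, with 0.15 as the highest over 28 alternatives, 26 of which kept the call. The bright RPL37A probe set (201429_s_at) read 12458 and 14454 in low and 12735 and 14123 in high leucine at 480 min. Here the groups overlapped, and the difference was -0.02 ± 0.05 (blocked, adjusted p = 0.90).

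RPL22, a 60S protein that is dispensable for translation in general, was read by 5 probe sets. One of them (221726_at) read 2905 and 2874 in low and 2507 and 2353 in high leucine at 480 min. Both high-leucine arrays were the lower, and the probe set fell by 0.26 ± 0.06 (blocked, adjusted p = 0.025; unblocked 0.14). The other 4 RPL22 probe sets gave -0.14, -0.07, -0.06 and 0.00 and did not pass. RPL3, a 60S protein next to the peptidyl transferase centre, read 9368 and 10367 in low and 7509 and 9514 in high leucine at 480 min. The groups overlapped between experiments, and within each experiment high leucine was lower. RPL3 fell by 0.22 ± 0.05 (blocked, adjusted p = 0.029; unblocked 0.30). The RPL22 and RPL3 calls were lost as deposited, with median centring, with array weights, and without either low-leucine array or the second-experiment high-leucine array at 480 min, and that of RPL3 also without the first-experiment one. The highest adjusted p was 0.28 for RPL22 and 0.20 for RPL3 over 29 alternatives, and both differences kept their sign under each scaling.

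**Figure D2:**
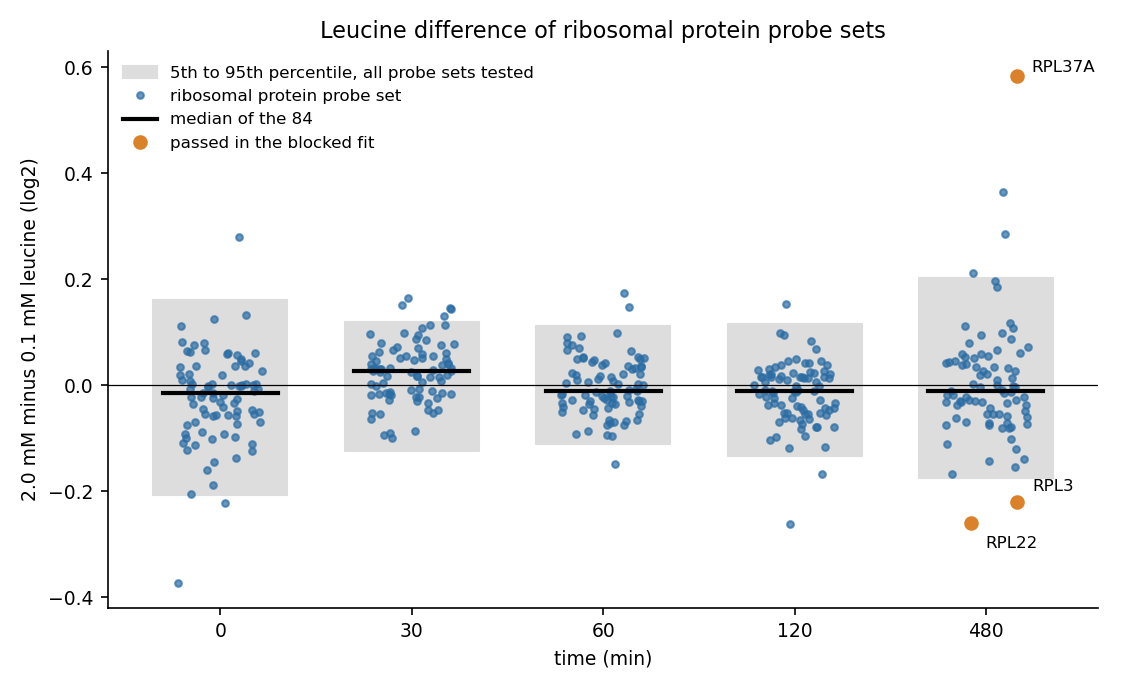
High minus low leucine (log2, quantile normalized) for the 84 probe sets at each time, with the median of the 84 as a bar and the 5th to 95th percentile of all 13329 probe sets in grey. The medians stay between -0.01 and 0.03, with signs that change with the scaling at 60 and 480 min, and at 480 min RPL37A, RPL22 and RPL3 passed in the blocked fit, the last 2 only after quantile normalization.

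Genes that changed less than these can be set beside them by role. The stalk protein RPLP1 differed by -0.01 ± 0.04 between leucine levels at 480 min (blocked, adjusted p = 0.93). RPLP2, weak on these arrays, read 318 and 406 in low and 427 and 445 in high leucine, a difference of 0.21 ± 0.09 (blocked, adjusted p = 0.22). The 2 high-leucine values lay above both low-leucine values, without passing. RPS6 differed by -0.03 ± 0.03 in its brightest probe set (blocked, adjusted p = 0.72), RPS4X by -0.07 ± 0.04 (0.30) and RPL11 by -0.03 ± 0.05 (0.82). RPL39, a small protein of the exit tunnel, differed by -0.04 ± 0.05 (blocked, adjusted p = 0.72) and its paralog RPL39L by 0.02 ± 0.09 (0.94). RPS27 differed by 0.02 ± 0.05 (blocked, adjusted p = 0.88), RPS27L by 0.12 ± 0.07 (0.48) and RPL10L by 0.03 ± 0.07 (0.87). Among genes read by their brightest probe set, RPL10A, a 60S protein of the L1 stalk, came next to the threshold with -0.15 ± 0.05 (blocked, adjusted p = 0.10), and then RPS15, a 40S protein, with 0.11 ± 0.04 (0.17).

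Probe sets of the same gene were also set side by side. Of the 20 genes with 2 or more probe sets tested, 10 had differences of both signs at 480 min, and in 0 did all probe sets pass. The median spread between the highest and lowest probe set of a gene was 0.07, and the widest was 0.60, for RPL37A. RPL38 spread by 0.38, with 0.36 and 0.29 in its 2 dimmer probe sets and -0.01 in its bright one. In these 2 dimmer probe sets the first experiment gave 0.70 and 0.59 and the second 0.03 and -0.01, and neither passed (blocked, adjusted p = 0.31 and 0.38). Probe sets with the suffix _x_at, which can hybridise to related sequences, made up 34.4% of the 93 against 10.9% of the array.

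**Figure D3:**
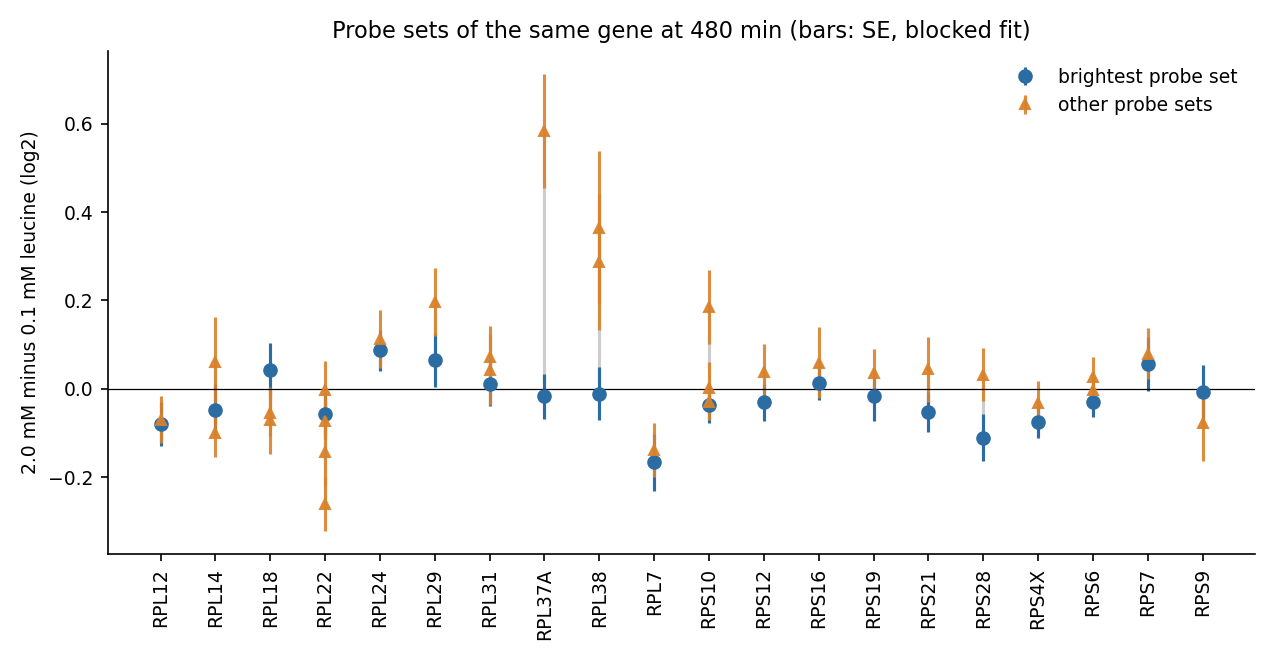
High minus low leucine at 480 min (log2) for the 20 genes with 2 or more probe sets tested; circles are the brightest probe set, triangles the others, and bars the SE of the blocked fit. RPL37A spreads by 0.60 and RPL38 by 0.38 between probe sets, with the brightest of each near 0. Both RPL7 probe sets lie below 0, at -0.17 and -0.14.

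Time in culture was read as 480 min against 0 min. Averaged over both leucine levels, 0 of 84 passed unblocked (1.21% of all passed; 9 of 84 at an unadjusted p under 0.05 in limma, against 12.2% of all). In the blocked fit 1 rose and 3 fell, against 11% of all probe sets passing. RPS12, a 40S protein of the beak, read 11653, 13590, 11731 and 13613 at 0 min and 11678, 12815, 11497 and 12831 at 480 min, in low leucine first and each time with the first experiment first. The times overlapped between experiments, and the second-experiment arrays were lower at 480 min. RPS12 fell by 0.12 ± 0.03 (blocked, adjusted p = 0.019), RPS9, a 40S protein near the messenger RNA entry, by 0.16 ± 0.04 (0.028) and RPLP1 by 0.09 ± 0.03 (0.034). The dimmer RPS12 probe set gave 0.01 and the dimmer RPS9 one -0.09, and neither passed. All 3 calls were lost as deposited and with median centring, where the changes were between -0.01 and -0.10, and each was also lost without any 1 of the second-experiment arrays at 0 or 480 min, that of RPLP1 also without the first-experiment low-leucine array at 480 min or high-leucine array at 0 min. The probe set that rose was the dimmest of 4 for RPS10, a 40S protein (214001_x_at), by 0.24 ± 0.06 (blocked, adjusted p = 0.019), which kept the call under both other scalings and lost it without the second-experiment low-leucine or first-experiment high-leucine array of either time. The other RPS10 probe sets did not rise, the lowest being at -0.07, and did not pass. At 30, 60 and 120 min 0 of 84 passed in either fit, against 0.0075%, 2.54% and 0.893% of all in the blocked fit; 6, 9 and 5 of the 84 had an unadjusted p under 0.05 there (13.4%, 23.9% and 19.5% of all) and 3, 5 and 3 in the unblocked limma fit (4.09%, 8.70% and 6.77% of all).

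Low and high leucine were also followed separately; these comparisons share arrays with those above. In low leucine 0 of 84 passed at 480 min against 0 min in either fit (0.233% of all in the blocked fit; 6 and 9 of 84 at an unadjusted p under 0.05 in the unblocked and blocked limma fits, against 5.51% and 15.5% of all). In high leucine 0 of 84 passed unblocked (1.72% of all; 12 of 84 at an unadjusted p under 0.05 in limma, against 14.2% of all). In the blocked fit 3 rose and 5 fell, against 15.2% of all probe sets passing. The split depended on the scaling: it was 9 and 0 as deposited, and 12 and 0 with median centring. The 5 that fell after quantile normalization were RPL22 (221726_at, -0.23 ± 0.06, blocked adjusted p = 0.022), RPL3 (-0.19 ± 0.05, 0.023), RPS12 (-0.15 ± 0.04, 0.027), RPL23A (-0.14 ± 0.04, 0.020) and the bright RPS10 probe set (-0.12 ± 0.04, 0.046). The dimmer RPS12 probe set gave 0.00 and did not pass. RPL23A, a 60S protein at the exit of the nascent chain, and the bright RPS10 probe set turned to changes between 0.00 and 0.01 under the other scalings. The RPL22, RPL3, RPS12 and RPL23A calls were lost without the second-experiment array at 0 min. Those of RPL22, RPS12 and RPL23A were lost without the second-experiment array at 480 min, that of RPL3 without the first-experiment one, and those of RPL22, RPL3 and RPL23A without the first-experiment array at 0 min. The bright RPS10 probe set kept its call in 11 of 29 alternatives, and leaving out any 1 array at 120 min, of high leucine at 0, 30 or 60 min or of low leucine at 480 min ended it, as did the second-experiment high-leucine array at 480 min. The 3 that rose were the dim probe sets of RPL37A and RPS10 (0.33 ± 0.08, adjusted p = 0.016, lost without the first-experiment array of either time) and RPS27L, the one gene to rise in its brightest probe set.

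RPS27L read 2342 and 2450 in high leucine at 0 min and 3294 and 3010 at 480 min in the first and second experiment. All 480 min arrays of this group lay above the 0 min arrays. The change was 0.25 ± 0.07 (blocked, adjusted p = 0.036; unblocked 0.27), and in low leucine the readings were 2796 and 3060 at 0 min and 3055 and 2598 at 480 min, which overlapped. The change of the leucine difference for RPS27L, which tests high against low directly, was 0.32 ± 0.11 (blocked, adjusted p = 0.095) and did not pass. The call in high leucine held in 25 of 29 alternatives and was lost with array weights and without either 480 min or the first-experiment 0 min array. Its widest adjusted p was 0.22.

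From 0 min on, most members moved lower in the second experiment than in the first, and 0 of the 84 single differences passed. Relative to the first experiment, the change from 0 to 480 min in the second differed by a median of -0.11 over the 84 probe sets, of which 73 lay below 0; the median of all 13329 was 0.00. The median change was 0.00 in the first and -0.09 in the second experiment at 480 min, 0.00 and -0.07 at 120 min, 0.01 and -0.06 at 60 min, and 0.05 and -0.01 at 30 min. Within an experiment all of these changes start from the same 0 min arrays, so the times are not independent of each other. The median of the 1041 other bright probe sets was 0.00 in the first and -0.02 in the second experiment at 480 min. The 480 min difference between experiments kept its sign as deposited (-0.06) and with median centring (-0.09), and lay between -0.12 and -0.08 when 1 array was left out. In the fit with a mean per experiment and time, 0 of 84 passed at 30, 60, 120 or 480 min, against 0.045%, 0.72%, 0.653% and 0.593% of all, and 7, 11, 12 and 24 of the 84 had an unadjusted p under 0.05 in limma. These are 8.33%, 13.1%, 14.3% and 28.6% of the members, against 5.02%, 11.1%, 7.98% and 12.4% of all probe sets. Without the first-experiment low-leucine array at 480 min, 2 passed at 480 min. RPS16, a 40S protein, had the smallest p, in its dimmer probe set.

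The dimmer RPS16 probe set (201258_at) read 7668 and 7908 at 0 min and 7827 and 8360 at 480 min in the first experiment, low leucine before high. In the second experiment it read 10192 and 9262 at 0 min and 8188 and 8545 at 480 min, so both late arrays lay below both early ones there. The changes were 0.04 and -0.27, and their difference was -0.31 ± 0.08 (adjusted p = 0.085). RPL37, a 60S protein, gave -0.23 ± 0.06 in the same comparison (adjusted p = 0.12), with 0.00 in the first and -0.22 in the second experiment. The share of summed intensity held by the 93 probe sets, on the deposited scale, was 3.89% and 3.85% at 0 min in the first experiment and 3.90% and 3.91% at 480 min. In the second experiment it was 4.28% and 4.15% at 0 min and 4.06% and 4.05% at 480 min.

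**Figure D4:**
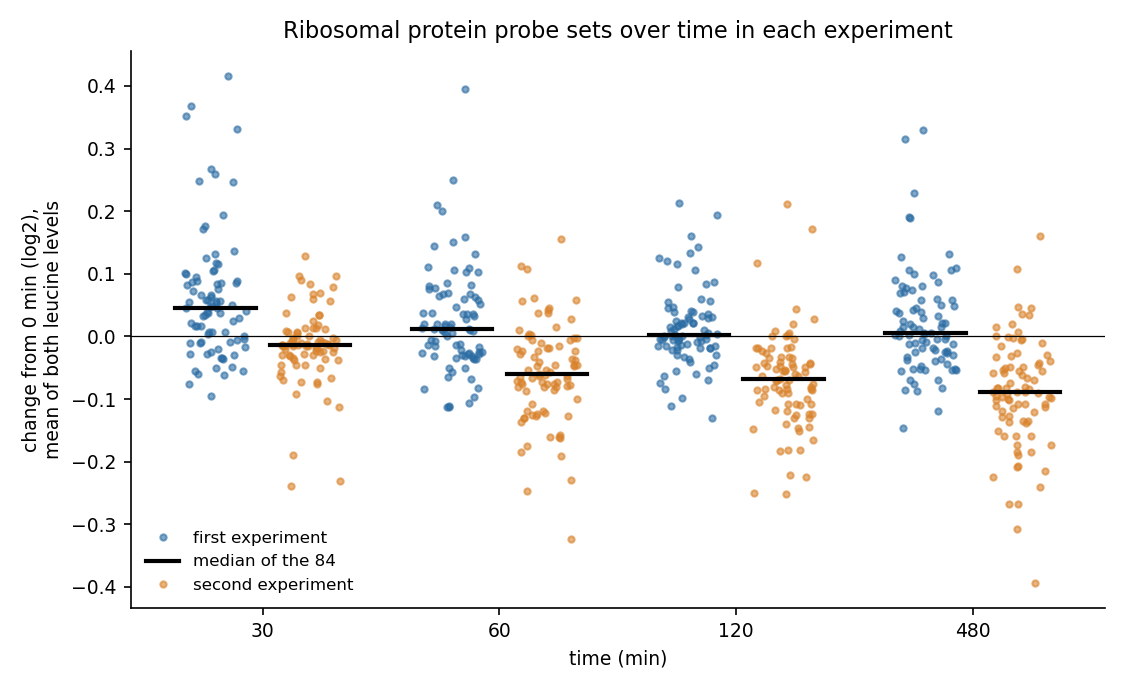
Change from 0 min (log2, quantile normalized, mean of both leucine levels) of the 84 probe sets at 30, 60, 120 and 480 min, in the first and second experiment, with medians as bars. First-experiment medians run from 0.05 at 30 min to 0.00 at 480 min and second-experiment medians from -0.01 to -0.09, and 0 of 84 probe sets passed a test of the difference at any time.

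Between experiments as such, over all groups, 23 of 84 probe sets were higher and 18 lower in the second, against 62% of all 13329 probe sets passing. The split rests on the scaling: it was 72 and 2 with the values as deposited, where the median of all probe sets itself lay 0.11 higher in the second experiment, and 51 and 4 with median centring. The median of the 84 was 0.01 after quantile normalization, 0.16 as deposited and 0.08 with median centring. Only 3 of the 84 differed by more than 0.25, against 16.0% of all probe sets.

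In each of these 3 the other probe sets of the gene differed less. RPS28, a small 40S protein, had a dim probe set (208903_at) that ran from 812 to 1030 over the first experiment and from 478 to 525 over the second. Its experiments did not overlap, and the second-minus-first difference was -0.78 ± 0.03 (limma fit with the experiment as a term, adjusted p = 2.8e-13), while the bright RPS28 probe set was higher by 0.06 ± 0.02 (0.040). For RPL22, 214042_s_at ran from 2528 to 3028 in the first experiment and from 1692 to 2187 in the second. Its experiments did not overlap and differed by -0.58 ± 0.03 (adjusted p = 4.1e-10), and 3 other RPL22 probe sets were lower too, with differences of -0.14, -0.09 and -0.08 (adjusted p = 0.00070, 0.0016 and 0.0025), of which the brightest turned to 0.087 as deposited and 0.0082 with median centring. The fifth, 221726_at, gave 0.01. The dim RPL37A probe set was higher in the second experiment by 0.35 ± 0.06 (adjusted p = 7.9e-05).

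Genes read by their brightest probe set differed less between experiments. RPL14, a 60S protein, was higher in the second by 0.19 ± 0.03 (adjusted p = 1.5e-05), and so was RPLP2 by 0.19 ± 0.04 (0.00042). RPL37 was higher by 0.11 ± 0.03 (0.0014), RPS19, a 40S protein mutated in Diamond-Blackfan anaemia, by 0.10 ± 0.02 (0.0020), RPS21, a 40S protein, by 0.10 ± 0.02 (0.00074) and RPL41 by 0.07 ± 0.02 (0.0023). The other RPL14 probe sets gave 0.086 and -0.004 (limma, adjusted p = 0.0062 and 0.95). The dimmer RPS21 probe set gave 0.01 (0.76) and did not pass. RPL9, a 60S protein, was lower with a difference of -0.12 ± 0.02 (0.00075) and RPS24, a 40S protein, with -0.11 ± 0.02 (4e-05), but on the deposited scale the signs of both turned, to 0.07 and 0.09. RPS6 was lower in all 3 probe sets tested, with differences from -0.13 to -0.05, and its brightest turned to 0.15 as deposited and 0.07 with median centring.

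**Figure D5:**
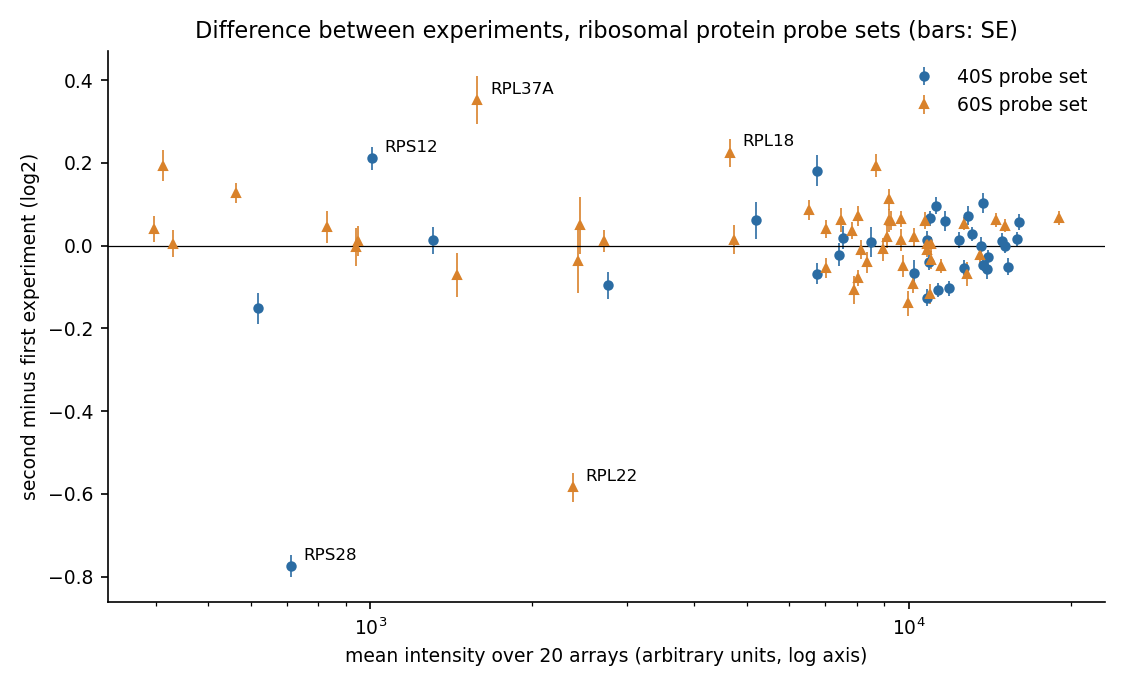
Second minus first experiment (log2, quantile normalized) for the 84 probe sets against mean intensity on a log axis; bars are the SE, circles 40S and triangles 60S. Bright probe sets lie within 0.2 of 0, except 222297_x_at of RPL18 at 0.22, and the signs of many turn under another scaling. Single dim probe sets of RPS28, RPL22 and RPL37A lie at -0.78, -0.58 and 0.35.

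Other genes with TOP messenger RNAs, mostly translation factors, were read from a list of 26, of which 20 were tested. At 480 min 0 passed between leucine levels in the unblocked fit and 4 fell in the blocked fit, in which 1.61% of all probe sets fell and 4.09% passed, and the median of the 20 was -0.07 and that of all probe sets -0.01. They were HNRNPA1, an RNA-binding splicing factor, by -0.38 ± 0.07 (blocked, adjusted p = 0.0090), EEF1D, an exchange factor of the elongation complex, by -0.29 ± 0.06 (0.010), NAP1L1, a histone chaperone, by -0.26 ± 0.07 (0.037) and PABPC1, the poly(A)-binding protein, by -0.16 ± 0.04 (0.049). All 4 were read by probe sets with the suffix _x_at, which can hybridise to related sequences. Other probe sets of these genes are not given here. In high leucine from 0 to 480 min 3 fell in the blocked fit (EEF1D, PABPC1 and HNRNPA1), against 6.61% of all falling. In the unblocked limma fit 1 fell, PABPC1 (-0.20, adjusted p = 0.048), against 0.593% of all. All of these stayed below 0 as deposited and with median centring. HNRNPA1 kept its leucine call in both (blocked, adjusted p = 0.032 and 0.042), EEF1D passed only as deposited, in both comparisons (0.042 and 0.049), and the PABPC1 and NAP1L1 calls and that of HNRNPA1 in high leucine were lost in both, with adjusted p from 0.062 to 0.25. EEF1A1, the main elongation factor, held the highest rank on the arrays after normalization and so differed by 0.00 by construction.

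Of 20 regulators and sensors of these messenger RNAs, 15 were tested and 0 passed between leucine levels at 480 min in either fit. LARP1, the TOP-binding protein, gave -0.13 ± 0.09 (blocked, adjusted p = 0.56), EIF4EBP1, which under mTORC1 control binds and represses the cap-binding protein eIF4E, -0.16 ± 0.07 (0.27), and MYC, which drives ribosome production, -0.29 ± 0.15 (0.35). In high leucine CNBP, a nucleic-acid-binding protein of TOP messenger RNAs, fell by 0.19 ± 0.06 from 0 to 480 min (blocked, adjusted p = 0.049), a call lost as deposited (0.57) and with median centring (0.63). Of 16 chaperones and importers of ribosomal proteins 12 were tested, and between leucine levels at 480 min 0 passed unblocked while 1 rose and 2 fell in the blocked fit, in which 2.48% of all rose and 1.61% fell. BCCIP, a chaperone of RPL23, rose by 0.20 ± 0.05 (blocked, adjusted p = 0.046), and KPNB1, an importin, fell by 0.23 ± 0.06 (0.033), as did NAP1L1, which is on both lists. From 0 to 480 min in high leucine, where 8.64% of all rose and 6.61% fell in the blocked fit, BCCIP rose by 0.27 ± 0.05 (blocked, adjusted p = 0.0036), GRWD1, a chaperone of RPL3, by 0.22 ± 0.05 (0.011) and PDCD2, a chaperone of RPS2, by 0.30 ± 0.07 (0.014), while TSR2, the chaperone of RPS26, fell by 0.24 ± 0.07 (0.024), and 0 of the 12 passed unblocked. RPL36AL, a copy of RPL36A outside the rule, rose by 0.22 ± 0.06 in that comparison (blocked, adjusted p = 0.026). The rises of BCCIP, GRWD1, PDCD2 and RPL36AL in high leucine passed under both other scalings (adjusted p from 0.0029 to 0.0077). That of BCCIP between leucine levels passed with median centring (0.045) and not as deposited (0.10), and the falls of KPNB1 and TSR2 passed in neither (0.078 to 0.13).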

How the data were processed

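Total RNA of the THLE-3 line was read on 20 Affymetrix arrays, with 2 arrays in each of 10 groups. The deposited values are linear intensity per probe set in arbitrary units; the probe-level summary and scaling by the authors are not given in the labels or the file. Probe sets were named by the platform annotation where it gave 1 symbol. To each value 165.2 was added as a pseudocount (each array's 10th percentile, median of the 20), followed by log2 and quantile normalization. This constant shrinks the differences of dim probe sets, and quantile normalization ties the brightest probe sets to fixed values. Probe sets with a mean at or above the 40th percentile were tested with limma 3.58.1 in R 4.3.3, with an intensity trend and Benjamini-Hochberg adjustment over all 13329, two-sided, at an adjusted p under 0.05. All 20 arrays entered each fit. The unblocked fit has 1 mean per group; the blocked fit adds the experiment. Each ± beside a change is the standard error of the fit named with it, with 2 arrays per group. For arrays, their number limits the precision.

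Every array is labelled with its experiment, and deviations from the group means correlated from 0.808 to 0.928 between arrays of the same experiment over all probe sets tested and from 0.389 to 0.867 over the ribosomal protein ones, so the experiment pairs the arrays.

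A gene was read by its brightest probe set. Named genes were, per comparison, those past the threshold in either fit (up to 10 rises and 10 falls), otherwise the smallest p-values, plus the stalk genes, RPS6, RPSA, RPS27A, RPS4X, RPL3, RPL5, RPL10, RPL11, RPL13A, RPL39, RPS27 and the paralogs, and up to 4 members of each other list. RPL38, the dimmer probe sets named and the promoter motifs were singled out after their values were seen. Members, lists and tests were chosen with earlier results of these data known. Promoters were read with Python 3.11.15. The fits were run on simulated data with independent noise and an additive experiment difference, the form that the blocked fit assumes. That run does not show how the calls hold on these arrays. The alternatives tried were the deposited values without normalization, median centring, a filter at the 60th percentile or none, a pseudocount multiplied or divided by 4, no _s_at or _x_at probe sets, 1 probe set per gene, no intensity trend, array weights, each array left out, and the blocked fit; the combinations of the blocked fit with the others were added after seeing the data.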

Additional observations from a re-analysis of the deposited data

Results flagged for a closer look

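The leucine difference of the dimmer RPL37A probe set (214041_x_at) was not the same at 0 and 480 min in the blocked fit: it changed by 0.69 on the log2 scale (limma, adjusted p = 0.047), higher in both experiments. The bright RPL37A probe set gave -0.02 in the same comparison.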

How the results depend on the processing

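Counts here are of ribosomal protein probe sets that passed, with 84 tested in the main setting. Fewer were tested in some settings: 54 with 1 probe set per gene and at most 26 without _s_at and _x_at probe sets. The choice of filter also changed the number tested. Counts under these settings therefore do not compare directly with those of the 84. Adding the experiment as a replicate block moved the count from 0 to 3 for the leucine difference at 480 min, from 0 to 1 for its change since 0 min, from 0 to 4 for 480 against 0 min, and from 0 to 8 for the same in high leucine. In the other comparisons fitted both ways it moved no count from 0. The blocked fit was then combined with each other choice, and these combinations were chosen after seeing the data. For the leucine difference at 480 min (3) the count was 1 with the deposited values, median centring, array weights, 1 probe set per gene or no _s_at and _x_at probe sets. For its change since 0 min (1) it was 4 as deposited, 3 with median centring and 0 with the smaller pseudocount, no filter, 1 probe set per gene, array weights or no _s_at and _x_at probe sets. For 480 against 0 min (4) it was 1 as deposited, with median centring or with array weights, and 0 without _s_at and _x_at probe sets. For high leucine (8) it was 5 with 1 probe set per gene or no intensity trend, and 1 with array weights or without _s_at and _x_at probe sets. The leucine difference at 0 min gained 3 as deposited, and 60 against 0 min gained 2 with median centring and 1 with no filter. Between experiments (41) the count was 74 as deposited, 24 of 54 with 1 probe set per gene, and 4 of the fewer tested without _s_at and _x_at probe sets.

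Leaving out 1 array moved the blocked counts from 0 to 3 for the leucine difference at 480 min, 0 to 1 at 0 min, 0 to 4 for the change since 0 min, 0 to 11 for 480 against 0 min, 0 to 1 for 60 and 0 to 3 for 120 min, 0 to 3 in low and 2 to 10 in high leucine. The first-experiment low-leucine array at 0 min gave, when left out, the 1 at 0 min, the 4 for the change, the 11, the 1 at 60, the 3 at 120 min and the 3 in low leucine. The change count was 3 without the second-experiment high-leucine array at 0 min. The 0 for the leucine difference at 480 min came without the first-experiment low-leucine array at 480 min, and 1 without any other 480 min array. For 480 against 0 min, 0 came without either second-experiment low-leucine array and 1 without either second-experiment high-leucine array of those times. In high leucine, 2 came without the first-experiment array at 0 min and 4 without the second-experiment array of either time. Unblocked counts moved from 0 to 1 for 480 against 0 min, overall (without either first-experiment array at 0 min) and in high leucine (without the first-experiment one), the count of the experiment-by-time difference at 480 min from 0 to 2 (without the first-experiment low-leucine array), and that between experiments from 36 to 44.

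Signs turned under other scalings for these of the named probe sets, and for others not listed. Between experiments 36 of the 84 lay below 0 in the main setting, 5 as deposited and 14 with median centring. In high leucine from 0 to 480 min RPL23A gave 0.0043 as deposited and 0.014 with median centring, and the bright RPS10 probe set 0.0023 and 0.012. Between experiments the values as deposited and with median centring were 0.087 and 0.0082 for RPS24, 0.13 and 0.052 for RPL7, 0.13 and 0.050 for RPS15, 0.15 and 0.076 for RPS23, 0.21 and 0.13 for RPS4X, 0.14 and 0.061 for RPL8, 0.15 and 0.074 for RPS6 and 0.087 and 0.0082 for 1 RPL22 probe set. As deposited, RPL11 turned to 0.12 and RPL9 to 0.069. The cause was not tested. With 2 arrays per group their number limits the precision, and signal over background is unknown because no detection calls were used here.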
